A study of Homo sapiens with 48 samples.

Results

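The NRF2 antioxidant genes are a set of 9 genes chosen by name: NFE2L2, KEAP1, GCLC, GCLM, NQO1, HMOX1, TXNRD1, SRXN1 and GSR. All 9 were present among the 11145 genes measured in ribosome-protected fragments (RPFs), the 11947 genes measured in total cytoplasmic RNA, and the 10836 genes that had both measurements. NFE2L2 encodes NRF2, a transcription factor that KEAP1 holds in the cytoplasm and delivers to a CUL3 ubiquitin ligase for destruction. Oxidants and electrophiles modify KEAP1, NRF2 then accumulates, pairs with a small MAF protein and binds antioxidant response elements near genes for glutathione synthesis, thioredoxin recycling, quinone reduction and haem breakdown. In colorectal tumour cells these enzymes are known for buffering reactive oxygen species and for detoxifying drugs.

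The cells were SW480, a human colorectal cancer line with mutant APC, that carried 1 of 3 doxycycline (DOX)-inducible shRNAs. shCTRL has no target, shEIF2B1 targets eIF2Bα and shEIF2B4 targets eIF2Bδ, both subunits of the exchange factor that recharges eIF2 for translation initiation. Each line was grown without DOX (-DOX, DMSO) or with 1 µg/ml DOX for 5 days (+DOX), in 4 replicates handled in separate weeks. The 24 lysates each gave an RPF and a total RNA library, 48 libraries in all. Every group shared the SW480 background and the integrated shRNA vector. The lines were pools of infected and selected cells, each target was represented by a single shRNA, and the lysates are bulk samples, in which fewer cells with a transcript and less of it per cell cannot be told apart.

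Values were the regularized log2 values that the authors made with DESeq2, separately for RPFs and total RNA. A value is not divided by gene length, so levels of different genes were not ranked, and shrinkage towards the gene's mean makes log2 changes of thinly covered genes smaller than the change in reads. The files give no read counts, so depth is unknown. The response to a knockdown was the +DOX value minus the -DOX value in that line, less the corresponding change in shCTRL. It was fitted with limma on the whole table with the replicate as a block, and a gene was called where the two-sided p, adjusted by Benjamini and Hochberg over the table, was under 0.1. Both responses use the same shCTRL libraries, and the uninduced libraries enter a line comparison and a response with opposite signs, so none of these is independent of the others.

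The knocked-down genes were lower on induction in 4 of 4 weeks in both measures. EIF2B1 responded by -0.67 ± 0.15 (SE, adjusted p = 0.0263) in total RNA and by -0.53 ± 0.13 (adjusted p = 0.0109) in RPFs. EIF2B4 responded by -0.49 ± 0.14 (adjusted p = 0.0634) in total RNA, while in RPFs the value of -0.48 ± 0.19 was not called (adjusted p = 0.236). Of 5 epithelial markers all 5 were listed in both tables, and of 5 colon and intestine markers 2 were (CDX2 and ASCL2, but not CDX1, VIL1 or CDH17). Of 4 fibroblast and 3 endothelial markers 0 were listed, and of 4 blood markers 1 (CD68). The shEIF2B4 libraries lay lower as a whole in RPFs, with a mean of 7.01 over all genes against 7.13 in shCTRL and 7.14 in shEIF2B1, and differences of uninduced shEIF2B4 from shCTRL therefore had an all-gene median of -0.13.

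Antioxidant response elements share the core TGACNNNGC, and windows around the start sites of the set were read for it because they show which members carry that core close to their promoter. The windows ran from 250 bases before to 50 bases after a start site (RefSeq, GRCh38.p14), both strands were searched, and no other motif was searched. Of 35116 such windows of all genes, 4687 (13.3%) held a match. Among the set, 7 genes had 10 windows, and 4 windows of 3 genes (GCLM, TXNRD1 and KEAP1) held a match. HMOX1 and GSR had no entry in the table of windows. The sequences below are 25 bases each, 5′ to 3′ on the strand that carries the core, with the core in capitals.
GCLM, chr1:93909448-93909472, plus strand: gaagacaaTGACTAAGCagaaatcg
TXNRD1, chr12:104215672-104215696, plus strand: acgggctaTGACTTCGCtgttgtca
TXNRD1, chr12:104215763-104215787, minus strand: gtgggaacTGACGGAGCcgaaggac
TXNRD1, chr12:104286922-104286946, minus strand: agtcagaaTGACAAAGCagaaatcc
KEAP1, chr19:10502809-10502833, minus strand: ttttattgTGACACGGCgggcgccc
KEAP1, chr19:10502786-10502810, plus strand: ggtcaccaTGACTAAGCagagccgg
The GCLM core lay 34 to 26 bases before the start site, and the upstream TXNRD1 core 99 to 91 bases before it. The window of the other TXNRD1 start site had its core 102 to 94 bases before the start, and the KEAP1 cores lay 54 to 46 and 31 to 23 bases before theirs. The windows of NFE2L2, GCLC, NQO1 and SRXN1 and the other KEAP1 window held no match, which says only that these letters were not in those 300 bases.

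In RPFs, HMOX1 and SRXN1 rose with shEIF2B1 relative to shCTRL, 2 of 9 genes where 27.3% of all 11145 genes were called, and none fell. A count of 2 is near that background share, and nothing particular to the 9 genes was read from it. With shEIF2B4, limma called 0 of 9 in RPFs, where 2.75% of all genes were called. HMOX1 and SRXN1 (2 of 9) had an unadjusted p under 0.05, as had 1749 of all 11145 genes. The median RPF response of the 9 was 0.05 for shEIF2B1, against -0.01 over all genes, and 0.20 for shEIF2B4, against -0.02 over all genes. In both responses 6 of 9 values were above 0. The plot of values by library shows the levels behind these responses.

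**Figure D1:**
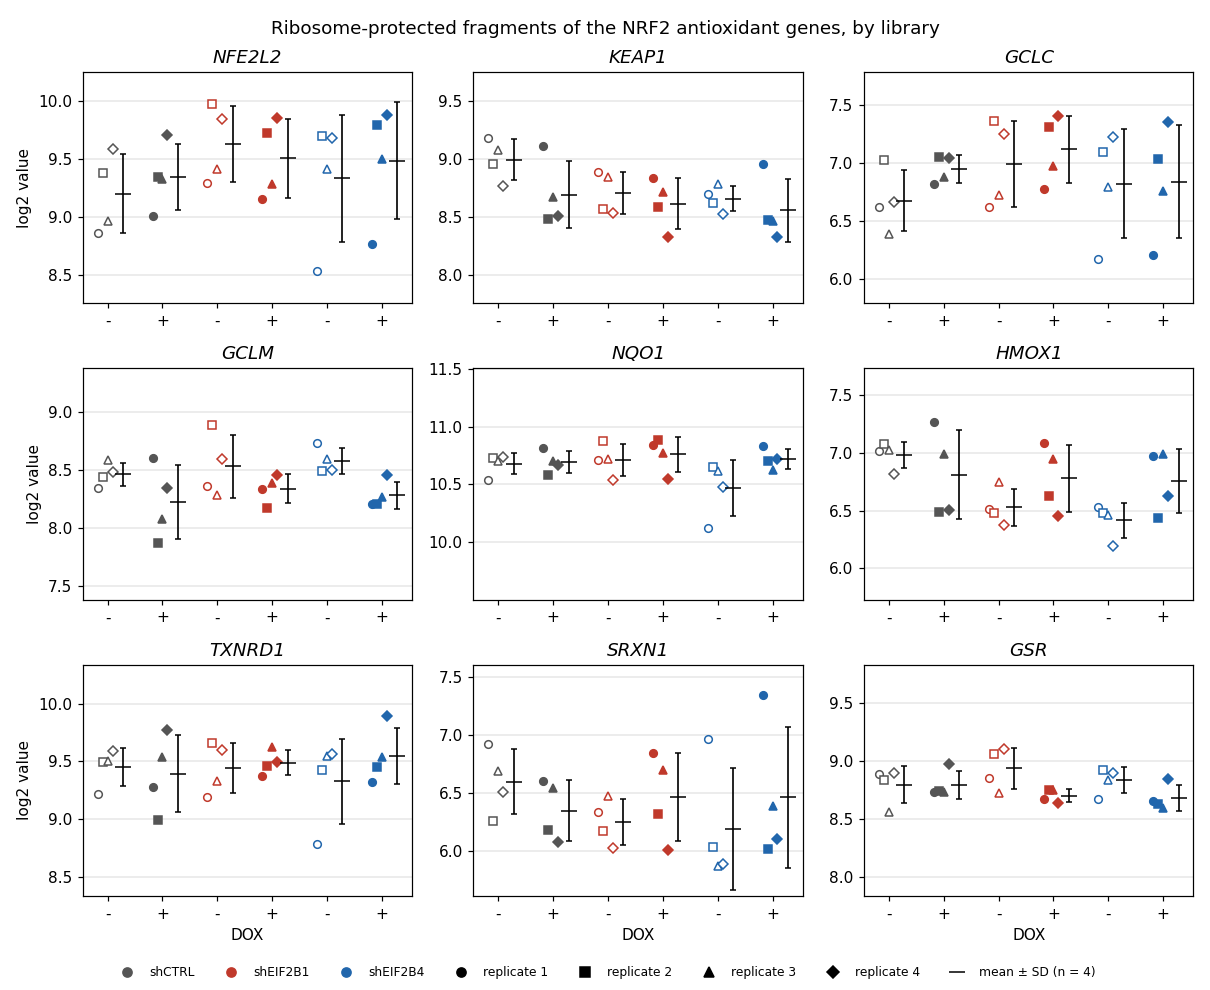
Log2 RPF values (y axis, a window of equal height for every gene) of the 9 genes in each library, by shRNA line (colour) and DOX (x axis: - and open symbols, uninduced, + and filled symbols, induced), with the replicate as the symbol shape. Black bars are the mean ± SD of 4 replicates. HMOX1 was higher in all 4 uninduced shCTRL libraries (6.82 to 7.07) than in any uninduced library of the other lines (6.19 to 6.75). Such separation was not counted over all genes.

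Among the regulators, NFE2L2 lies on chromosome 2 (177227595 to 177392697, minus strand, GRCh38) and KEAP1 on chromosome 19 (10486120 to 10503741, minus strand). NFE2L2 RPFs in shCTRL were 8.87, 9.38, 8.97 and 9.59 without DOX in replicates 1 to 4 and 9.01, 9.35, 9.33 and 9.71 with DOX. In shEIF2B1 they were 9.29, 9.97, 9.42 and 9.85 without DOX and 9.16, 9.73, 9.28 and 9.86 with DOX. In shEIF2B4 they were 8.53, 9.70, 9.41 and 9.68 without DOX and 8.77, 9.79, 9.50 and 9.89 with DOX. Replicates of a group spanned more than any change with DOX, and uninduced and induced libraries overlapped in every line. The change with DOX lay below that of shCTRL in 4 of 4 weeks in shEIF2B1, a response of -0.28 ± 0.13 (adjusted p = 0.128). In shEIF2B4 the response was 0.00 ± 0.18 (adjusted p = 0.995). Neither was called.

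KEAP1 moved in the line that has no target. Its shCTRL RPFs were 9.18, 8.96, 9.08 and 8.77 without DOX and 9.11, 8.48, 8.67 and 8.51 with DOX, lower in 4 of 4 weeks. That change, -0.30 ± 0.09, was the only one of the set called in shCTRL RPFs (adjusted p = 0.0899), where 9.85% of all genes were called. Without replicate 1, 4 of 9 genes were called in shCTRL RPFs, with 3526 genes called over the table in place of 1098, and KEAP1 among them (-0.38, adjusted p = 0.00512). The KEAP1 change was not called without replicate 2 (-0.24, adjusted p = 0.237), 3 (-0.27, adjusted p = 0.480) or 4 (-0.32, adjusted p = 0.318), and over its 12 alternatives the adjusted p ran from 0.00512 to 0.826. In the knockdown lines KEAP1 RPFs were 8.89, 8.57, 8.84 and 8.54 in uninduced shEIF2B1 and 8.70, 8.62, 8.79 and 8.53 in uninduced shEIF2B4. The induced values were 8.84, 8.59, 8.71 and 8.33 for shEIF2B1 and 8.96, 8.48, 8.47 and 8.33 for shEIF2B4. Responses of 0.21 ± 0.12 (shEIF2B1, adjusted p = 0.239) and 0.20 ± 0.15 (shEIF2B4, adjusted p = 0.538) were not called, and both turned to -0.09 and -0.10 without the shCTRL correction.

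HMOX1, the inducible haem oxygenase that turns haem into biliverdin, iron and carbon monoxide, lies on chromosome 22 (35380361 to 35394214, plus strand). Its RPFs in shCTRL were 7.01, 7.07, 7.02 and 6.82 without DOX and 7.27, 6.49, 6.98 and 6.50 with DOX. In shEIF2B1 they were 6.51, 6.48, 6.75 and 6.37 without DOX and 7.09, 6.62, 6.95 and 6.45 with DOX. In shEIF2B4 they were 6.53, 6.47, 6.46 and 6.19 without DOX and 6.97, 6.43, 6.99 and 6.63 with DOX. Induced libraries of the 3 lines covered similar ranges, and the uninduced libraries were those that stood apart. The shEIF2B1 response was 0.42 ± 0.17, or 1.34-fold (adjusted p = 0.0849), with the change above that of shCTRL in 4 of 4 weeks. The shEIF2B4 response was 0.51 ± 0.18 (adjusted p = 0.174), also above shCTRL in 4 of 4 weeks.

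SRXN1, the sulfiredoxin that restores over-oxidised peroxiredoxins, lies on chromosome 20 (646615 to 653370, minus strand). Its RPFs in shCTRL were 6.93, 6.26, 6.69 and 6.51 without DOX and 6.60, 6.18, 6.54 and 6.07 with DOX. In shEIF2B1 they were 6.34, 6.17, 6.47 and 6.02 without DOX and 6.85, 6.32, 6.70 and 6.01 with DOX. In shEIF2B4 they were 6.97, 6.04, 5.87 and 5.89 without DOX and 7.35, 6.02, 6.38 and 6.11 with DOX. It went down in 4 of 4 weeks in shCTRL and up in 3 of 4 weeks in each knockdown line, and replicate 1 of shEIF2B4 stood above its other replicates in both states. The shEIF2B1 response was 0.47 ± 0.15, or 1.38-fold (adjusted p = 0.0395), and the shEIF2B4 response 0.52 ± 0.22 (adjusted p = 0.244).

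Each of these calls was lost when any 1 of 3 particular weeks was left out. Without replicate 2 HMOX1 responded by 0.32 (adjusted p = 0.239), without replicate 3 by 0.48 (adjusted p = 0.145) and without replicate 4 by 0.43 (adjusted p = 0.213). SRXN1 was not called without replicate 1 (0.34, adjusted p = 0.219), 3 (0.49, adjusted p = 0.1002) or 4 (0.48, adjusted p = 0.102). Of 14 alternatives, HMOX1 was called in 5 and SRXN1 in 6, with adjusted p from 0.0523 to 0.621 and from 0.0221 to 0.678. Without replicate 1, HMOX1 was called with shEIF2B4 as well (0.62, adjusted p = 0.0356), with 1615 genes called over the table in place of 307. Over 14 alternatives the adjusted p of HMOX1 with shEIF2B4 ran from 0.0356 to 0.998.

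The uninduced lines already differed in RPFs. Uninduced shEIF2B1 differed from uninduced shCTRL in 5 of 9 genes, where 54.1% of all genes were called. NFE2L2 (0.43 ± 0.08, adjusted p = 0.000233) and GCLC (0.32 ± 0.10, adjusted p = 0.0164) were higher. HMOX1 (-0.45 ± 0.09, adjusted p = 0.000912), SRXN1 (-0.35 ± 0.10, adjusted p = 0.0118) and KEAP1 (-0.29 ± 0.08, adjusted p = 0.00494) were lower. Without replicate 4, GCLC was no longer called (0.23, adjusted p = 0.142), and its adjusted p over 12 alternatives ran from 0.00670 to 0.986.

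In uninduced shEIF2B4, 2 of 9 genes were called against shCTRL, both lower, where 13.9% of all genes were called. They were HMOX1 (-0.57 ± 0.12, adjusted p = 0.0551) and KEAP1 (-0.34 ± 0.12, adjusted p = 0.0974). These values include the lower level of all shEIF2B4 libraries. After each library was centred on its median they were -0.47 (adjusted p = 0.116) and -0.24 (adjusted p = 0.241), and neither was called. Over 12 alternatives the adjusted p of HMOX1 ran from 0.00110 to 0.998 and that of KEAP1 from 0.0562 to 0.998. The count changed whichever replicate was left out. Without replicate 1, 5 of 9 genes were called (SRXN1 among them, -0.56, adjusted p = 0.00287), with 5305 genes called over the table in place of 1554. Without replicate 2 or 4 the count was 0 of 9 (1 and 0 over the table), and without replicate 3 it was 1 of 9 (174 over the table).

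Genes called lower in these line comparisons had GC-rich coding sequences and those called higher had GC-poor ones, without a strict order by GC content within either group. The coding sequence held 69.1% GC in SRXN1, 61.8% in KEAP1 and 61.3% in HMOX1. These lay at percentiles 97.9, 82.6 and 81.2 of the transcripts measured in RPFs or total RNA. That of NFE2L2 held 43.1% and that of GCLC 43.2%, at percentiles 17.4 and 17.9. The median over the RPF genes alone was 52.5%. GCLM (45.9%), TXNRD1 (47.0%), NQO1 (48.3%) and GSR (53.6%) lay between. At the third codon position, KEAP1 had 83.0% GC, SRXN1 84.7% and HMOX1 79.9%, against 38.7% in NFE2L2 and 44.2% in GCLC. Composition came from GENCODE v29, in which 97.3% of RPF genes had a coding sequence.

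Over all 10848 RPF genes with a coding sequence, GC content and the difference of uninduced shEIF2B1 from shCTRL had a Spearman rho of -0.83, and for shEIF2B4 it was -0.79. For the RPF responses the rho was 0.68 for shEIF2B1 and 0.61 for shEIF2B4. For the total RNA responses, over 11596 genes, it was 0.20 for shEIF2B1 and -0.29 for shEIF2B4. Genes are not independent replicates and share their libraries, so these values only describe the tables. After each library's smoothed GC trend was removed, an alternative chosen after seeing the data, none of the 9 genes was called in the shEIF2B1 response, with 878 genes called in the table in place of 3038. HMOX1 then responded by 0.22 (adjusted p = 0.490) and SRXN1 by 0.12 (adjusted p = 0.678). The uninduced differences of shEIF2B1 became 0.12 for NFE2L2 (adjusted p = 0.323), 0.00 for GCLC (adjusted p = 0.986), -0.05 for KEAP1 (adjusted p = 0.679), -0.23 for HMOX1 (adjusted p = 0.118) and -0.03 for SRXN1 (adjusted p = 0.871). Those of shEIF2B4 became -0.26 for HMOX1 (adjusted p = 0.310) and -0.02 for KEAP1 (adjusted p = 0.959). The shCTRL change of KEAP1 became -0.24 (adjusted p = 0.166), so no RPF call on the 9 genes remained. The paper reports a relation of TE change to coding GC content in both knockdowns. Removing the trend takes out such a change together with any technical one, and these cannot be told apart here.

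**Figure D2:**
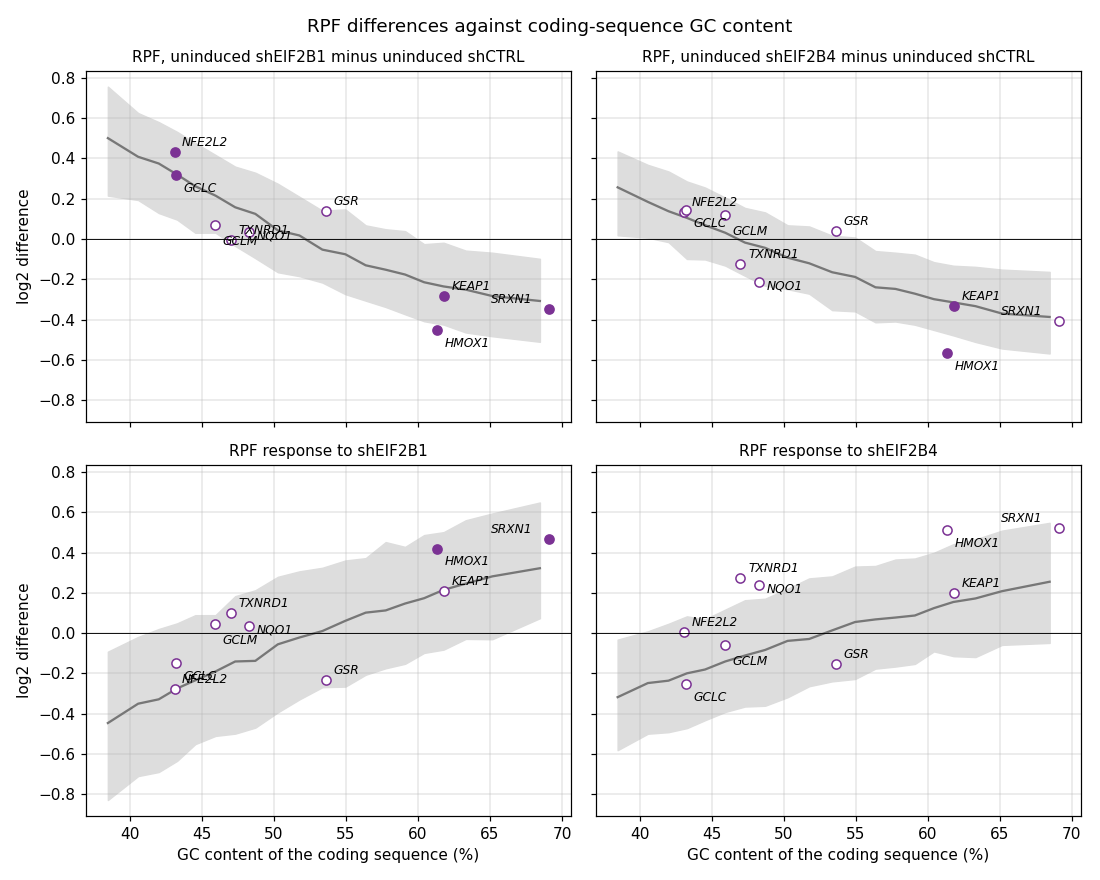
Log2 RPF differences (y axis) against the GC content of the coding sequence (x axis, %) for the 9 genes (points, filled where the adjusted p was under 0.1), with the median (line) and the 10th to 90th percentile (band) of all genes in bins of GC content. The line falls with GC content in both uninduced comparisons and rises in both responses. SRXN1, KEAP1 and HMOX1, with 61.3% to 69.1% GC, lie below 0 in the upper panels and above 0 in the lower panels.

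The glutathione genes gave no called RPF response. GCLC, the catalytic subunit of glutamate-cysteine ligase on chromosome 6 (53497341 to 53616970, minus strand), responded by -0.15 ± 0.16 in shEIF2B1 (adjusted p = 0.530) and -0.25 ± 0.22 in shEIF2B4 (adjusted p = 0.590). Its change with DOX lay below that of shCTRL in 4 of 4 weeks in both lines, and the shCTRL change itself was 0.27 ± 0.11 (adjusted p = 0.150). GCLM, the modifier subunit on chromosome 1 (93885205 to 93909456, minus strand), had shEIF2B4 RPFs of 8.73, 8.49, 8.60 and 8.50 without DOX and 8.21, 8.21, 8.26 and 8.45 with DOX. GCLM values without and with DOX did not overlap there, a separation that was not counted over all genes. In shCTRL its mean was 8.46 ± 0.10 without DOX and 8.23 ± 0.32 with DOX (SD, n = 4), and its responses were -0.06 ± 0.17 with shEIF2B4 (adjusted p = 0.897) and 0.05 ± 0.20 with shEIF2B1 (adjusted p = 0.893). GSR, which reduces oxidised glutathione and lies on chromosome 8 (30678061 to 30727999, minus strand), responded by -0.23 ± 0.13 with shEIF2B1 (adjusted p = 0.214) and -0.15 ± 0.14 with shEIF2B4 (adjusted p = 0.610).

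NQO1 and TXNRD1 gave none either. NQO1, a quinone reductase on chromosome 16 (69706996 to 69726951, minus strand), responded by 0.03 ± 0.13 with shEIF2B1 (adjusted p = 0.879) and 0.24 ± 0.16 with shEIF2B4 (adjusted p = 0.485). The shEIF2B4 change was largest in replicate 1, in which NQO1 RPFs were 10.12 without and 10.83 with DOX, against changes of 0.05, 0.01 and 0.24 in replicates 2 to 4. TXNRD1, the cytosolic thioredoxin reductase on chromosome 12 (104215779 to 104350305, plus strand), responded by 0.10 ± 0.16 with shEIF2B1 (adjusted p = 0.696) and 0.28 ± 0.18 with shEIF2B4 (adjusted p = 0.460). Its uninduced shEIF2B4 value was also lowest in replicate 1, 8.78 against 9.42, 9.55 and 9.56 in the others.

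**Figure D3:**
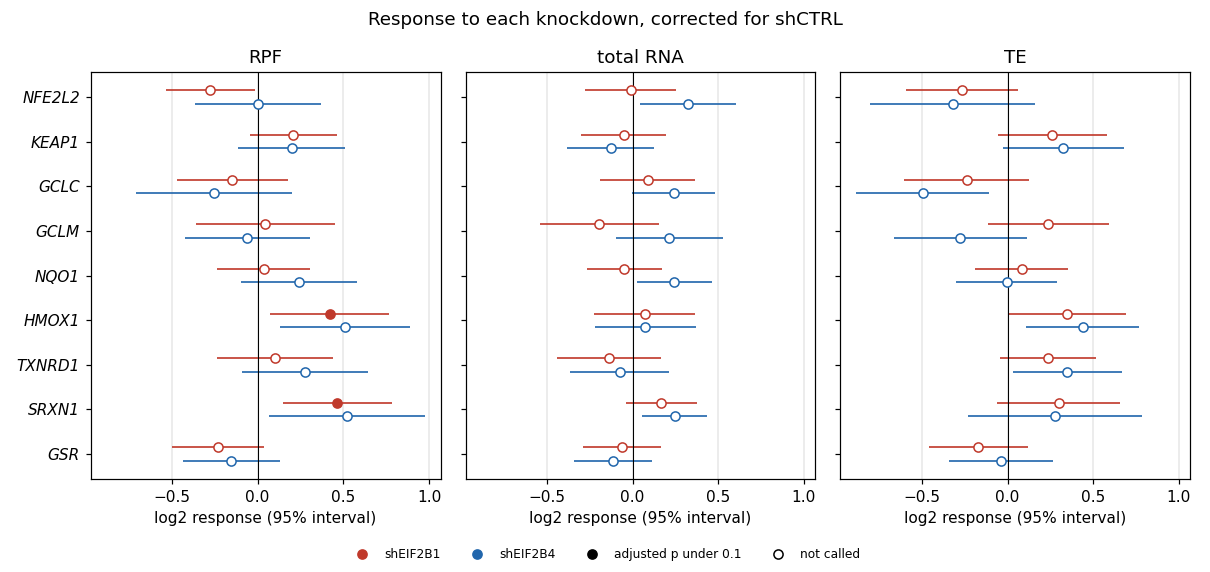
Log2 responses (x axis, +DOX minus -DOX in the knockdown line, less the same change in shCTRL) of the 9 genes (y axis) in RPFs, total RNA and translational efficiency (TE), for shEIF2B1 (red) and shEIF2B4 (blue). Lines are 95% intervals from limma over 16 lysates and filled points have an adjusted p under 0.1. Only HMOX1 (0.42) and SRXN1 (0.47) in the RPF response to shEIF2B1 are filled.

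In total RNA, limma called 0 of 9 genes in either response. For shEIF2B1, 3.47% of all genes were called, and none of the 9 had an unadjusted p under 0.05. Values ran from -0.19 ± 0.17 for GCLM (adjusted p = 0.627) to 0.17 ± 0.10 for SRXN1 (adjusted p = 0.445), with a median of -0.05. HMOX1 total RNA, whose RPFs had risen, responded by 0.07 ± 0.14 (adjusted p = 0.868), and all its libraries lay between 5.84 and 6.53.

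For shEIF2B4, 5.4% of all genes were called, and 3 of the 9 had an unadjusted p under 0.05, as had 2057 of all 11947 genes. The median of the 9 was 0.21, against 0.00 over all genes. NFE2L2 total RNA in shEIF2B4 was 10.18, 10.07, 9.90 and 10.11 without DOX and 10.44, 10.51, 10.34 and 10.29 with DOX. Every induced library lay above every uninduced one, a separation that was not counted over all genes. In shCTRL NFE2L2 was 10.19, 10.19, 10.53 and 10.24 without DOX and 10.16, 10.22, 10.53 and 10.26 with DOX, hardly different within a week. Its response was 0.32 ± 0.13 (adjusted p = 0.208).

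Uninduced and induced shEIF2B4 total RNA also stood apart for NQO1 and GCLC. How many of all genes separated in this way was not counted, and nothing particular to the 9 genes was read from it. NQO1 was 10.46, 10.66, 10.70 and 10.74 without DOX and 10.97, 10.87, 10.81 and 10.99 with DOX, a response of 0.24 ± 0.10 (adjusted p = 0.224). GCLC was 8.46, 8.59, 8.45 and 8.55 without DOX and 8.67, 8.70, 8.81 and 8.90 with DOX, a response of 0.24 ± 0.11 (adjusted p = 0.292). Without the shCTRL correction, the changes of NFE2L2 (0.33, adjusted p = 0.0111), GCLC (0.26, adjusted p = 0.0382) and NQO1 (0.27, adjusted p = 0.0361) were called. That setting called 4112 genes over the table in place of 645, so these 3 calls were not read as particular to the set. With the correction, the adjusted p over 14 alternatives stayed above 0.1 for all 3 genes in every alternative other than that one.

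SRXN1 total RNA in shEIF2B4 was 8.99, 9.09, 9.17 and 9.20 without DOX and 9.21, 9.21, 9.19 and 9.28 with DOX, up in 4 of 4 weeks. In shCTRL it was 9.07, 9.08, 8.98 and 9.07 without DOX and 8.98, 8.85, 8.85 and 8.98 with DOX, down in 4 of 4 weeks. The response of 0.25 ± 0.09 was not called (adjusted p = 0.164). GCLM responded by 0.21 ± 0.15 (adjusted p = 0.496), HMOX1 by 0.07 ± 0.14 (adjusted p = 0.837), TXNRD1 by -0.07 ± 0.14 (adjusted p = 0.832), GSR by -0.11 ± 0.11 (adjusted p = 0.641) and KEAP1 by -0.13 ± 0.12 (adjusted p = 0.639).

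**Figure D4:**
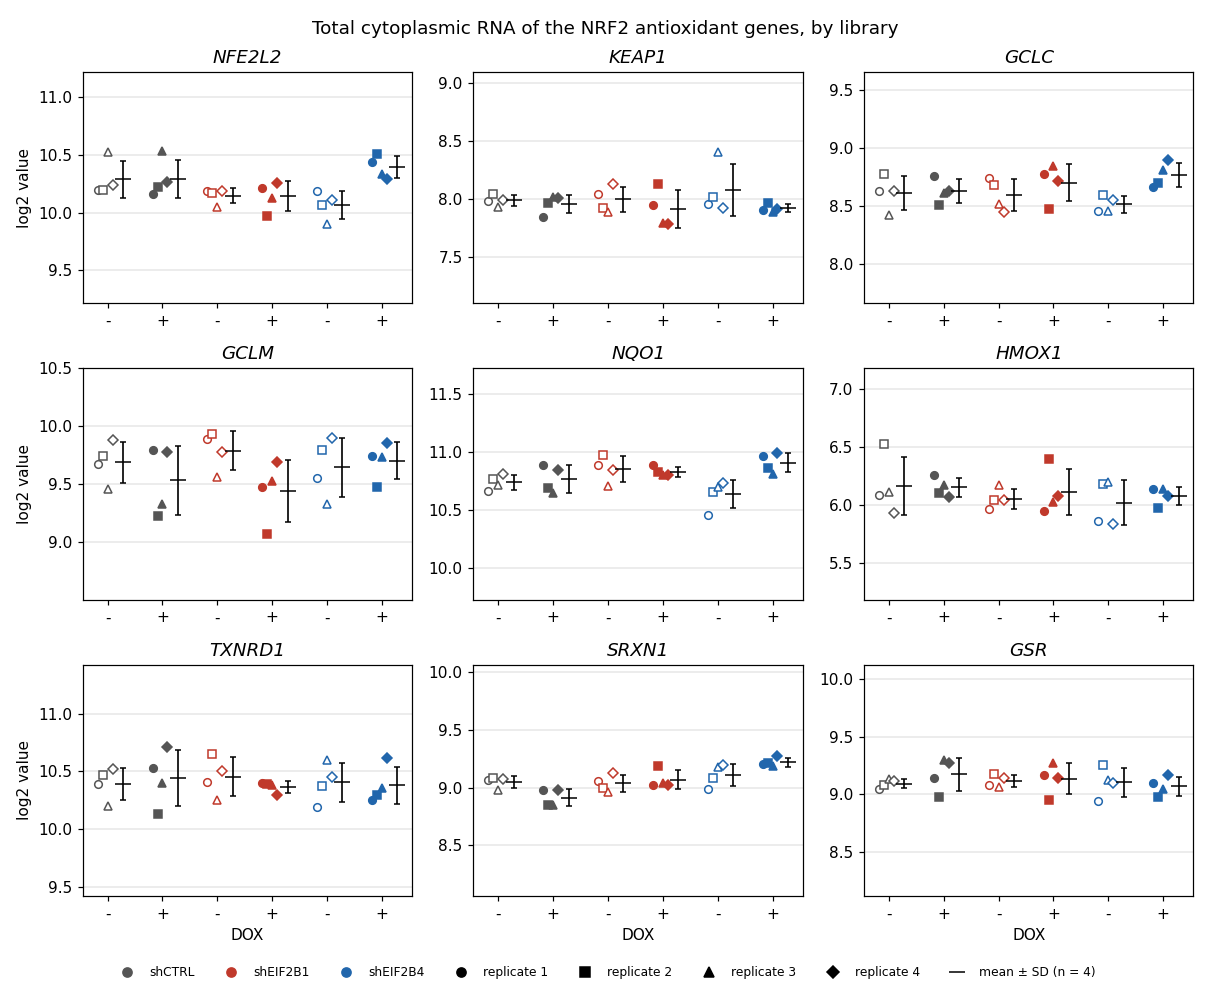
Log2 total RNA values (y axis, a window of equal height for every gene) of the 9 genes in each library, by shRNA line (colour) and DOX (x axis: - and open symbols, uninduced, + and filled symbols, induced), with the replicate as the symbol shape. Black bars are the mean ± SD of 4 replicates. In shEIF2B4 the induced libraries of NFE2L2, GCLC and NQO1 lie above all uninduced ones, a separation that was not counted over all genes.

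No member was called between the uninduced lines in total RNA. Limma called 0 of 9 genes in uninduced shEIF2B1 against shCTRL, where 1.4% of all genes were called and none of the 9 had an unadjusted p under 0.05. It called 0 of 9 in uninduced shEIF2B4, where 2.32% of all genes were called. An unadjusted p under 0.05 was found for 1890 of all 11947 genes and, of the 9, for NFE2L2 alone (-0.22 ± 0.09, adjusted p = 0.297). In replicate 3 the shCTRL value of NFE2L2 was 10.53, above the others, and without that replicate the difference was -0.09 (adjusted p = 0.353). The shCTRL total RNA gave 0 of 9 calls on induction, where 4.44% of all genes were called and no member had an unadjusted p under 0.05. Without replicate 1, 1 of 9 was called there, with 2452 genes called over the table in place of 531.

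Translational efficiency was the log2 RPF value less the log2 total RNA value of that lysate, and a TE response therefore contains the RPF response. Limma called 0 of 9 genes with shEIF2B1, where 7.1% of all genes were called. Of all 10836 genes, 2193 had an unadjusted p under 0.05, and of the 9 HMOX1 alone did (0.35 ± 0.17, adjusted p = 0.238). With shEIF2B4, limma called 0 of 9, where 0.0923% of all genes were called. An unadjusted p under 0.05 was found for 1848 of all 10836 genes and for 3 of the 9. These were HMOX1 (0.44 ± 0.16, adjusted p = 0.210), TXNRD1 (0.35 ± 0.15, adjusted p = 0.261) and GCLC (-0.49 ± 0.19, adjusted p = 0.221). Over 10548 genes, coding GC content and the TE response had a Spearman rho of 0.68 for shEIF2B1 and 0.76 for shEIF2B4. With the GC trend removed, the shEIF2B4 values were 0.22 for HMOX1 (adjusted p = 0.803), 0.50 for TXNRD1 (adjusted p = 0.340) and -0.22 for GCLC (adjusted p = 0.835). GCLC TE went up in 4 of 4 weeks in shCTRL and down in 4 of 4 in shEIF2B4. Without replicate 1, GCLC (-0.58, adjusted p = 0.0605) and HMOX1 (0.56, adjusted p = 0.0658) were called in the shEIF2B4 TE response, with 1417 genes called over the table in place of 10, and over their 14 alternatives the adjusted p of both reached 0.879. TXNRD1 TE went down in 4 of 4 weeks in shCTRL and up in 4 of 4 in both knockdown lines, with a response of 0.24 ± 0.14 in shEIF2B1 (adjusted p = 0.325).

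The knockdowns were compared directly by the contrast of their responses over all 24 libraries. In RPFs limma called 0 of 9 genes, with none at an unadjusted p under 0.05, where 0.00897% of all genes were called. In total RNA it called 0 of 9, where 0.1% of all genes were called. There, 3 of the 9 had an unadjusted p under 0.05, as had 1528 of all 11947 genes. The shEIF2B1 response lay below that of shEIF2B4 by 0.41 for GCLM (-0.41 ± 0.17, adjusted p = 0.327), by 0.33 for NFE2L2 (-0.33 ± 0.13, adjusted p = 0.318) and by 0.29 for NQO1 (-0.29 ± 0.10, adjusted p = 0.285). The 95% intervals of these differences were -0.75 to -0.06, -0.60 to -0.06 and -0.50 to -0.08. Over 11596 genes, coding GC content and this total RNA difference had a Spearman rho of 0.53.

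Around the 9 genes, 96 further genes of the same pathways were counted, of which 85 were measured in RPFs and 84 in total RNA. The lists were chosen with earlier results of these data known, so their shares of calls only describe the tables and are not a test. With shEIF2B1 21 rose and 11 fell in RPFs (37.6%, against 27.3% of all genes). With shEIF2B4 6 rose and 1 fell (8.24%, against 2.75%). In total RNA 7 rose and none fell with shEIF2B1 (8.33%, against 3.47%), and 8 rose and 2 fell with shEIF2B4 (11.9%, against 5.4%). In TE 3 rose and 1 fell with shEIF2B1 (4.76%, against 7.1%). With shEIF2B4 limma called 0 of 84, and 15 had an unadjusted p under 0.05, as had 1848 of all 10836 genes. Medians of the 85 or 84 genes lay between -0.00 and 0.07 in all 6 responses. With the GC trend removed, 14 in place of 32 were called in the shEIF2B1 RPF response and 7, as with it, in that of shEIF2B4. Over the table that setting called 878 and 203 genes in place of 3038 and 307. Without the replicate block the counts were 1 and 2 (50 and 36 over the table). Leaving out replicate 4 gave 18 for shEIF2B1 (1529 over the table). For shEIF2B4 leaving out replicate 1, 3 or 4 gave 20, 3 and 4 (1615, 66 and 43 over the table). With each replicate left out, the total RNA counts ran from 1 (without replicate 4, 111 over the table) to 5 for shEIF2B1. For shEIF2B4 they ran from 5 (without replicate 2 or 4, 243 and 217 over the table) to 7. Both ranges lay below the counts with all replicates. In TE the counts with a replicate left out ran from 0 to 7 for shEIF2B1 and from 0 to 12 (without replicate 1, 1417 over the table) for shEIF2B4.

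Of 22 measured glutathione and cystine genes, 8 rose and 1 (GSTO1) fell in shEIF2B1 RPFs (40.9%, against 27.3% of all genes). CHAC1, which degrades glutathione, rose in every RPF and total RNA response, by 0.93 with shEIF2B1 (adjusted p = 0.00208) and 1.20 with shEIF2B4 (adjusted p = 0.0223) in RPFs. In total RNA it rose by 0.53 (adjusted p = 0.0434) and 0.50 (adjusted p = 0.0246). SLC7A11, the cystine importer, rose by 0.83 in shEIF2B1 RPFs (adjusted p = 0.00651) and 0.90 in shEIF2B4 total RNA (adjusted p = 0.0504). CHAC1, SLC7A11 and SESN2 are also known as targets of ATF4, the transcription factor of the integrated stress response.

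Of 8 NADPH supply genes, IDH1, the cytosolic NADP-dependent isocitrate dehydrogenase, rose by 1.24 and 1.72 in RPFs of shEIF2B1 and shEIF2B4 (adjusted p = 2.93e-05 and 3.51e-05). In total RNA it rose by 1.38 and 1.89 (adjusted p = 5.47e-05 and 3.88e-08). PGLS, of the pentose phosphate pathway, rose by 0.54 in shEIF2B1 RPFs (adjusted p = 0.00686), and no gene of that list other than these was called in the RPF or total RNA responses. In shEIF2B1 RPFs 25% of that list was called, against 27.3% of all genes. These IDH1 values exceeded every RPF or total RNA response of the 9 genes, the highest of which was 0.52.

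Of 13 thioredoxin and peroxiredoxin genes, 3 rose (SESN2, TXNIP and PRDX5) and 3 fell (PRDX1, SESN3 and TXN) in shEIF2B1 RPFs. This was 46.2% of the list, against 27.3% of all genes. SESN2, a stress-induced sestrin, rose by 1.19 with shEIF2B1 (adjusted p = 0.00135) and 1.46 with shEIF2B4 (adjusted p = 0.00120). TXNIP, which inhibits thioredoxin, rose by 1.06 (adjusted p = 0.00661) and 1.78 (adjusted p = 0.000468). Both also rose in total RNA, SESN2 by 0.68 and 0.78 and TXNIP by 0.93 and 1.52. The superoxide dismutases SOD1 (-0.37, adjusted p = 0.0700) and SOD2 (-0.38, adjusted p = 0.0726) fell in shEIF2B1 RPFs, 2 of 3 genes of their list, where 27.3% of all genes were called.

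Of 14 genes for quinone, aldehyde and carbonyl removal, AKR7A2 rose (0.36, adjusted p = 0.0276) and CBR3 and PIR fell (PIR -0.39, adjusted p = 0.0695) in shEIF2B1 RPFs. This was 21.4% of the list, against 27.3% of all genes. Of 9 haem and iron genes, 2 rose and 1 (TFRC, the transferrin receptor) fell in shEIF2B1 RPFs (33.3%, against 27.3%). BLVRB, a biliverdin reductase, rose in RPFs with shEIF2B1 (0.74, adjusted p = 0.00127) and shEIF2B4 (0.84, adjusted p = 0.0125) and in total RNA (0.43 in both, adjusted p = 0.0793 and 0.0630). SLC48A1, a haem transporter, rose by 0.65 in shEIF2B1 RPFs (adjusted p = 0.0214). Of 16 partners and regulators of NRF2, 5 rose (MAFG, SQSTM1, MAFK, NFE2L1 and MAFF) and 2 fell (CUL1 and CUL3) in shEIF2B1 RPFs. This was 43.8% of the list, against 27.3% of all genes. CUL3, the ligase scaffold that KEAP1 binds, fell by 0.77 on the log2 scale in shEIF2B1 RPFs (adjusted p = 0.00307). SQSTM1, the p62 adaptor that sequesters KEAP1, rose in RPFs by 0.44 with shEIF2B1 (adjusted p = 0.0281) and 0.72 with shEIF2B4 (adjusted p = 0.0139). With the GC trend removed, AKR7A2 (0.10, adjusted p = 0.614), PGLS (0.25, adjusted p = 0.232), SQSTM1 (0.23, adjusted p = 0.321), SLC48A1 (0.40, adjusted p = 0.189) and PIR (-0.23, adjusted p = 0.327) were no longer called in shEIF2B1 RPFs. SOD1 (-0.28, adjusted p = 0.252) and SOD2 (-0.35, adjusted p = 0.170) were not called either, with values nearer to those before removal. CUL3 was still called at a smaller value (-0.35, adjusted p = 0.0776), and CHAC1, SLC7A11, IDH1, SESN2, TXNIP and BLVRB were also still called, with values of 0.66, 1.04, 1.48, 0.98, 1.16 and 0.51.

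The 9 genes did not form a single group across libraries. After each week's mean was removed, Pearson correlations over the 24 libraries of a measure described which members moved alike, with the libraries and weeks shared by all points. In RPFs the correlation was 0.76 for NQO1 with TXNRD1, 0.70 for NFE2L2 with GCLC and 0.54 for HMOX1 with SRXN1, and -0.54 for NFE2L2 with SRXN1. NFE2L2 and GCLC have GC-poor coding sequences and HMOX1 and SRXN1 GC-rich ones. RPF differences between groups varied with GC content over all genes, and how far this enters these correlations was not tested. In total RNA it was 0.59 for GCLC with NQO1 and -0.49 for KEAP1 with GCLC. GCLM, NFE2L2 and SRXN1 had the widest ranges of group means in total RNA (0.35, 0.33 and 0.31). The genes most like GCLM in total RNA over the 24 libraries were AMMECR1 (r = 0.94), TSN (0.93) and MRPS30 (0.91). For NFE2L2 they were SNX10 (0.87), ZFAND5 (0.86) and CNEP1R1 (0.85), and for SRXN1 they were SQSTM1 (0.85), LOXL3 (0.84) and ENOX2 (0.82).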

How the data were processed

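RPF and total cytoplasmic RNA libraries of 24 SW480 lysates were used, grouped by the labels, with none left out. The deposited values are regularized log2 values made by the authors with DESeq2, after Bowtie2 alignment to GENCODE v38 transcripts, RSEM quantification of deduplicated total RNA reads and counting of RPFs on the coding sequence of the most abundant transcript. The submitters' processing notes name R 4.3.1, cutadapt 1.18 and SAMtools 1.9. Replicate 3 joins reads of 2 sequencing runs. No counts were given, so depth is unknown, intervals for counting error could not be made, and a count model was not run.

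Each comparison was fitted on the whole table in R 4.3.3 with limma 3.58.1 (lmFit, eBayes with a mean-variance trend), with the replicate as a block, and called at an adjusted p under 0.1. The treatment protocol places the 4 runs of the experiment in separate weeks, replicate numbers were taken to mark them, and same-numbered libraries deviated together, with r over 0.1 in 52 of 60 RPF pairs, 37 of 60 total RNA pairs and 55 of 60 TE pairs. P-values measure the spread between cultures that is left after group and week means are removed, moderated over genes by limma. Positions and GC content came from GENCODE v29 (GRCh38) by transcript identifier in Python 3.11.15, promoter windows from RefSeq, and plots from matplotlib 3.10.9. The fits were tested on simulated data first.

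The 9 members and the pathway and marker lists were chosen with earlier results of these data known. All members are named, with the 2 genes per pathway list that had the largest absolute RPF response among those called, and the 3 genes most like each of the 3 members with the widest total RNA range. Other called genes of the lists were named after their values were seen. Alternatives changed one choice at a time: block, trend, low-value filter, centring, each replicate left out, weeks 1 and 3 or 2 and 4, threshold, 24 lysates in one fit, no shCTRL correction and, added after seeing the data, removal of each library's lowess trend on coding GC.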

Additional observations from a re-analysis of the deposited data

Results flagged for a closer look

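In groups of 4 libraries, the gap between an extreme replicate and its neighbour was divided by the range of the group, and 8 of 108 groups of the 9 genes exceeded Dixon's 95% critical value. Chance alone flags about 1 in 20 such groups. In RPFs these were GSR in induced shCTRL (0.968, replicate 4 at 8.97 with the next at 8.74), SRXN1 in uninduced shEIF2B4 (0.849, replicate 1 at 6.97 with the next at 6.04) and NQO1 in uninduced shCTRL (0.830, replicate 1 at 10.54 with the next at 10.71). In total RNA of uninduced shCTRL, replicate 3 stood apart for NFE2L2 (0.867, 10.53 with the next at 10.24) and for SRXN1 (0.850, 8.98 with the next at 9.07). In total RNA of shEIF2B1, the groups were NFE2L2 uninduced (0.855, replicate 3 at 10.05 with the next at 10.17), SRXN1 induced (0.861, replicate 2 at 9.19 with the next at 9.04) and TXNRD1 induced (0.892, replicate 4 at 10.29 with the next at 10.39).

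The change on induction differed from that of shCTRL by a called product term for HMOX1 (0.42) and SRXN1 (0.47) in RPFs of shEIF2B1. Every week of a knockdown line moved opposite to every week of shCTRL for SRXN1 total RNA in shEIF2B4 (0.25), TXNRD1 TE in shEIF2B1 (0.24) and shEIF2B4 (0.35) and GCLC TE in shEIF2B4 (-0.49), and the test of these differences was not passed.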

How the results depend on the processing

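The 9 genes gave 55 results that were recomputed to 738 values under the alternatives, of which 637 kept direction and side of the threshold, 55 lost the call, 13 gained it and 33 changed sign. No alternative moved the count of the 9 genes called in the direct comparisons of the knockdowns, in the TE response to shEIF2B1 or in total RNA before induction. The causes were not tested.

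Replicate numbers were taken to pair the libraries of a week. With no replicate block, 0 genes were called in the RPF response to shEIF2B1 (2 with it), in the RPF change of shCTRL (1) and in the uninduced RPF differences of shEIF2B1 (5) and shEIF2B4 (2), and the block changed no other count of the 9. With the GC trend removed, each of these counts was also 0. With each replicate left out, the shEIF2B1 RPF count ran from 0 to 1, the shEIF2B4 RPF count from 0 to 1, the shEIF2B4 TE count from 0 to 2, the count for the shCTRL change from 0 to 4 (RPFs) or 0 to 1 (total RNA), and the uninduced shEIF2B4 RPF count from 0 to 5. In weeks 1 and 3 alone the counts were 1 for the shEIF2B1 RPF response and 0 for the shCTRL RPF change and uninduced shEIF2B4. Over the table, 1396, 0 and 2 genes were called. In weeks 2 and 4 alone the counts were 0, 2 and 4, with 637, 1294 and 3947 genes called over the table. The stricter threshold of 0.05 gave 1, 0 and 0, with 1963, 274 and 77 genes called over the table. All 24 lysates in one fit gave 0 for the shEIF2B1 RPF response, with 1895 genes called over the table. Without the shCTRL correction, 2 were called in RPFs of shEIF2B4, and 1 and 3 in total RNA of shEIF2B1 and shEIF2B4. That setting called 2655, 4104 and 4112 genes over the table in place of 307, 414 and 645. With no mean-variance trend the shCTRL RPF count was 0 and that of uninduced shEIF2B4 1 (931 and 1502 over the table). The low-value filter gave 1 and centring 0 for uninduced shEIF2B4 (228 and 17 over the table).

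Sign changes in RPFs came with the GC trend removed for NFE2L2 (0.011), KEAP1 (-0.00275) and GCLC (0.13) in shEIF2B1 and GCLM (0.084) in shEIF2B4. Without the shCTRL correction they came for KEAP1 (-0.093), GCLC (0.13) and GCLM (-0.19) in shEIF2B1 and for KEAP1 (-0.10) and GCLC (0.019) in shEIF2B4. In weeks 1 and 3 they came for NQO1 in shEIF2B1 (-0.047) and NFE2L2 in shEIF2B4 (-0.095), and in weeks 2 and 4 for GCLM (-0.071 in shEIF2B1, 0.19 in shEIF2B4). With each replicate left out, GCLM ran from -0.14 to 0.16 and NQO1 from -0.0051 to 0.095 in shEIF2B1, and NFE2L2 from -0.036 to 0.098 and GCLM from -0.18 to 0.18 in shEIF2B4. In total RNA of shEIF2B1, those ranges were -0.039 to 0.061 for NFE2L2, -0.16 to 0.049 for KEAP1, -0.12 to 0.0071 for NQO1 and -0.16 to 0.16 for HMOX1. In weeks 1 and 3 the values were 0.066 for NFE2L2, -0.19 for HMOX1 and 0.014 for GSR, which was 0.018 without the shCTRL correction, and NFE2L2 was 0.032 with the GC trend removed. In total RNA of shEIF2B4, KEAP1 ran from -0.20 to 0.032 and TXNRD1 from -0.18 to 0.048. There, weeks 2 and 4 gave 0.0021 for KEAP1 and 0.12 for TXNRD1, and weeks 1 and 3 gave -0.0039 for HMOX1. Depth is unknown, so low values of HMOX1 and SRXN1 cannot be given a counting error.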
